A study of Sus scrofa with 19 samples.

Results

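The 10 genes described here encode proteins of autophagy and mitophagy: ULK1, BECN1, MAP1LC3B, GABARAPL1, SQSTM1, BNIP3, BNIP3L, PINK1, TFEB and LAMP2. They were chosen by name, found by symbol in the authors' gene table and matched by Ensembl identifier to the raw count files, which hold 25879 genes. All 10 matched a single identifier, and all 10 were among the 13552 genes left after the filter on low counts. Their counts per library ran from 249 (TFEB) to 15143 (GABARAPL1).

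Autophagy is the process by which a cell wraps part of its own contents in a double membrane, the autophagosome, and delivers it to the lysosome for breakdown. ULK1 and BECN1 start the membrane, MAP1LC3B and GABARAPL1 are coupled to its lipids, SQSTM1 tethers ubiquitin-tagged cargo to it, and LAMP2 is a protein of the lysosomal membrane with which it fuses. BNIP3, BNIP3L and PINK1 mark mitochondria for this route (mitophagy), and TFEB switches on lysosome and autophagy genes. Heart muscle cells are long-lived and rich in mitochondria and depend on this turnover, and loss of LAMP2 in humans causes Danon disease, a cardiomyopathy with stored autophagic material.

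RNA-seq was performed on myocardium from 19 female large white pigs, with 1 library per pig. DOX pigs (n = 5) received doxorubicin and MYO pigs (n = 5) Myocet, its liposomal form, at 60 mg/m2 in each of 3 cycles, and both groups were ended early, at 3 months, because the animals were in poor health. RemoLV pigs (n = 3) had a balloon occlusion of a coronary artery for 90 min followed by reperfusion, and tissue was taken at 6 months from the remote posterior wall, whereas all other groups were sampled in the anterior wall. Hyper pigs (n = 3) carried a stent in the descending thoracic aorta from a juvenile age, which became a stenosis as they grew, and Control pigs (n = 3), called sham-operated in the sample labels and untreated in the study's methods, were followed for 6 months as were the Hyper pigs. The DOX and MYO data came from an earlier study, so that drug, follow-up time and sequencing series cannot be told apart in these groups. The hearts were not perfused, and all values are from bulk tissue, in which fewer cells of a type and less RNA per cell cannot be told apart.

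The names of the libraries differ between the deposited files, and this touches every comparison with Control. Ranked by expression, the genes of each column of the authors' table matched those of a single count file (Spearman 1, next best 0.9919), which ties every one of the 19 columns to its library. For 8 of them the column and the title name different groups: Control and RemoLV trade places with all 3 libraries each, as do DOX 5 and MYO 1. Some replicate numbers are reversed too. Hyper 1 and Hyper 3 of the table are Hyper 3 and Hyper 1 by title, and RemoLV 1 and RemoLV 3 of the table are Control 3 and Control 1. The files do not settle which set of names is right. Groups here follow the sample titles, and each comparison with Control is also given with the names of the table. The comparison of the 10 anthracycline libraries (DOX and MYO) with the 3 Hyper libraries holds the same libraries under both sets of names.

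The 3 libraries titled RemoLV stood apart in chamber markers. The ventricular light chain MYL2 was at 58 ± 50.8 CPM in them (SD, n = 3), against group means of 10400 to 15900 CPM elsewhere, where CPM is the count divided by the TMM-scaled library size, on the usual edgeR scale. The ventricular transcription factor IRX4 was at 0.106 ± 0.094 CPM in them, with 1 library at 0, and the atrial light chain MYL4 was at 7170 ± 1060 CPM, against group means of 1.02 to 9.87 CPM elsewhere. Their summed fibroblast markers were 4700 to 5400 CPM, against 877 to 3760 CPM in the other 16 libraries, and their summed markers of cardiomyocytes of any chamber 16900 to 18000 CPM, against 23000 to 35400 CPM. The summed level of all 5 ventricular markers was 25000 to 29100 CPM in them, against 45000 to 74600 CPM in the other 16 libraries, and most of it was MYH7, at 23800 ± 1950 CPM, with MYL3 at 2580 ± 490 CPM. MYL2, IRX4 and HEY2 (3.52 ± 1.3 CPM, against group means of 61.1 to 88.5 CPM) were thus far lower in these libraries than in the others, although their labels place them in the LV, and of these IRX4 was near 0. MYH7 and MYL3 were lower by less. The 3 libraries are the Control group of the authors' table. Counts on genes totalled 9527710 to 20370209 per library (median 14527230).

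**Figure D1:**
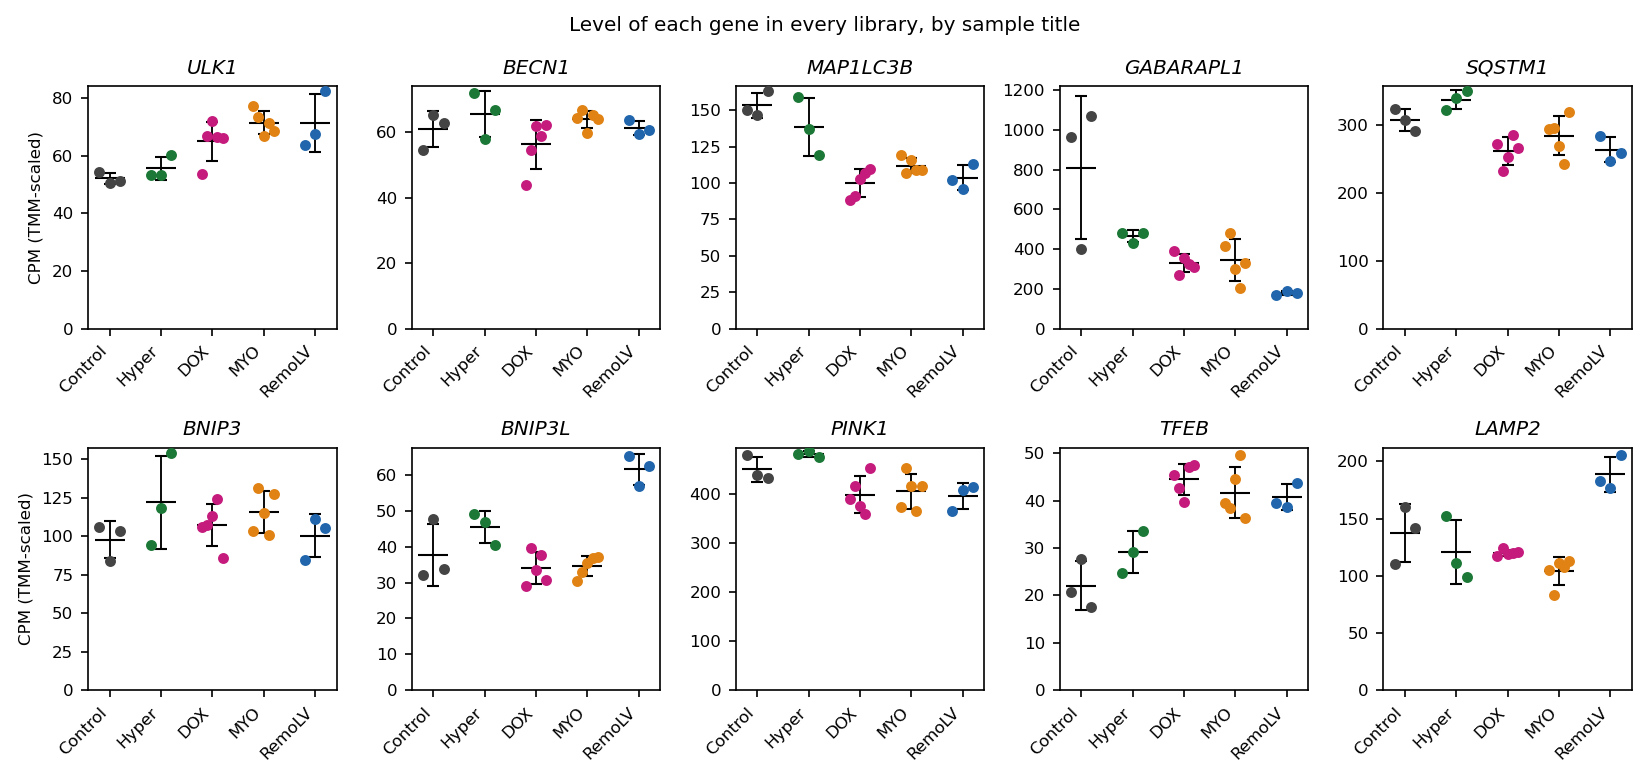
Level of each of the 10 genes in every library, in CPM scaled by TMM, on linear axes that start at 0. Points are libraries grouped by sample title, the long bar is the group mean and the whiskers are the SD (n = 3 for Control, Hyper and RemoLV, n = 5 for DOX and MYO). TFEB libraries of DOX, MYO and RemoLV all lie above the highest Control library at 27.7 CPM, and GABARAPL1 in RemoLV lies between 168 and 189 CPM.

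Between the anthracycline groups and Hyper, 6 of the 10 genes changed: ULK1 and TFEB were higher in DOX and MYO, and MAP1LC3B, SQSTM1, BNIP3L and PINK1 were lower. The count rested on single Hyper libraries: 2 genes were called without Hyper 1 and 3 without Hyper 2. Leaving out a library can lower the calls among all genes as well, and the share of all genes in these fits is not given here. A gene is called changed at an adjusted p of at most 0.05 in edgeR's quasi-likelihood test over all genes tested. Of all genes tested, 32.6% were called in this comparison, 15.8% higher and 16.9% lower. With the table's names, these 6 genes and 32.7% of all genes were called. The changes were small, from 0.26 to 0.56 on the log2 scale in size, and none reached the fold threshold of the study, an absolute log2 fold change of 2. The median log2 fold change was -0.20 over the 10 genes and 0.03 over all genes tested. Markers moved between these libraries as well: summed cardiomyocyte markers of any chamber were 23000 to 27900 CPM in DOX and MYO and 28700 to 31100 CPM in Hyper, and summed fibroblast markers 2060 to 3760 CPM and 877 to 1920 CPM. Summed atrial markers had medians of 1370 CPM in DOX and 1210 CPM in MYO and 325 CPM in Hyper (range 195 to 1260 CPM), nearly all of it MYL7. Their part in the changes was not tested.

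**Figure D2:**
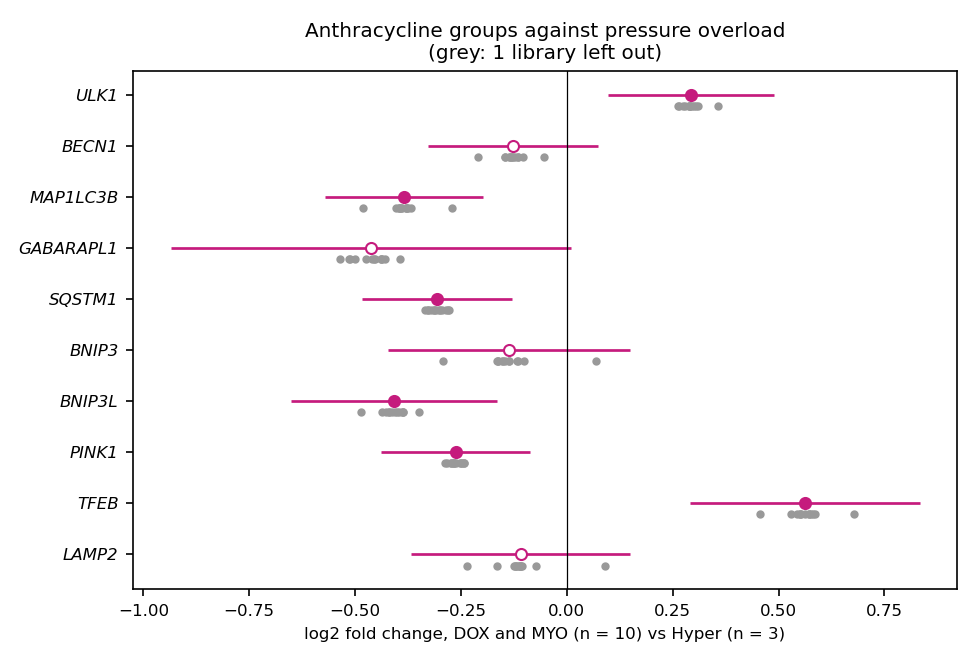
Log2 fold change of the 10 genes between DOX and MYO (10 libraries) and Hyper (3 libraries), with 95% confidence intervals. Filled points passed an adjusted p of 0.05, open points did not, and small grey points give the same value with 1 library left out in turn. TFEB (0.56) and ULK1 (0.29) lie to the right of 0 and MAP1LC3B, SQSTM1, BNIP3L and PINK1 to the left, whereas the interval of GABARAPL1 reaches 0.01.

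Against Control, the sign of the fold change turned with the set of names for 3 of the 10 genes in DOX, for 5 in MYO and for 5 in Hyper. In RemoLV all 10 turned, as they had to, since the names exchange all libraries of RemoLV and Control. LAMP2 in MYO was lower and called under both, although the call by title was lost without MYO 2, Control 2 or Control 3 (adjusted p = 0.0599, 0.134 and 0.0882). By sample title, 4 of the 10 genes changed in DOX (42.1% of all genes tested), 5 in MYO (42.4%), 6 in RemoLV (47.2%) and 0 in Hyper (0%, with 2 of the 10 and 17.8% of all genes at an unadjusted p under 0.05 and 0 of the 10 called by DESeq2, but 3 called without Control 2). By the names of the table, 3 changed in DOX (29.6% of all genes tested), 3 in MYO (29.2%), 6 in RemoLV (47.2%) and 8 in Hyper (35.8%). Markers differed here too: summed fibroblast markers were 2060 to 3760 CPM in DOX and MYO and 1150 to 1760 CPM in Control by title, without overlap. Summed atrial markers were 1120 to 2430 CPM in DOX, 759 to 1250 CPM in MYO and 102 to 152 CPM in Control, also without overlap. Summed blood markers had medians of 34.9 CPM in DOX (range 8.49 to 112), 43.6 CPM in MYO (12.8 to 197) and 341 CPM in Control (36.5 to 352), and these ranges overlapped. The TMM factors of Control 1 and Control 3 by title were 0.735 and 0.696, against 0.834 to 1.18 in the other 17 libraries, and the part of these in the changes was not tested. These comparisons share their Control libraries within each set of names and are not independent of each other. Hyper against Control by table name holds the same libraries as RemoLV against Hyper by title, with the sign turned, and is not a separate result. The same is true of Hyper against Control by title and RemoLV against Hyper by table name. Of the 8 calls in Hyper by table name, those of GABARAPL1 and LAMP2 held with each library left out, and the others were each lost without at least 1 library: ULK1 without Control 3, Hyper 2 or Hyper 3 of the table (adjusted p up to 0.171), TFEB without the same 3 (up to 0.106), BNIP3L without Control 1, Control 3, Hyper 1 or Hyper 2 (up to 0.105), MAP1LC3B without Hyper 3 (0.0613), and SQSTM1 and PINK1 as given below. GABARAPL1 in RemoLV was the only one of the 10 past the study's fold threshold against Control (6.35% of all genes tested by title, 6.34% by table name), and its direction turned with the names.

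**Figure D3:**
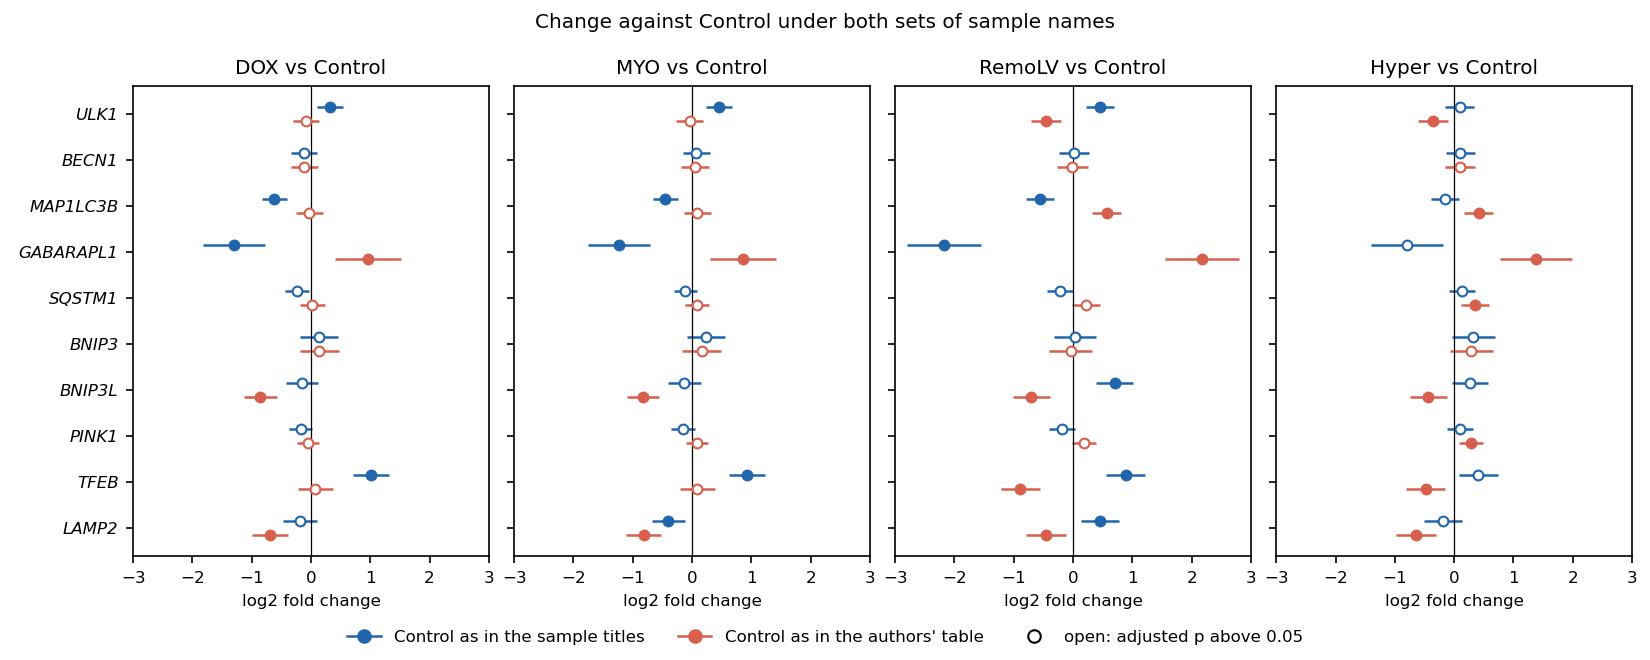
Log2 fold change of each gene against Control in 4 panels (DOX, MYO, RemoLV and Hyper), with 95% confidence intervals. Blue points take Control from the sample titles and red points from the names in the authors' table, and open points did not pass an adjusted p of 0.05. GABARAPL1 lies at -1.30 in DOX by title and at 0.97 by table name, and TFEB at 1.02 and 0.08.

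TFEB, the master regulator of lysosome biogenesis, was the gene with the widest difference between the anthracycline groups and Hyper. TFEB lies on chromosome 7 of the pig genome build Sscrofa11.1 (36870240 to 36920887, minus strand). It was at 45.4, 42.6, 39.8, 47.1 and 47.5 CPM in DOX and at 39.6, 38.5, 44.6, 49.6 and 36.3 CPM in MYO. It was at 24.7, 29.1 and 33.7 CPM in Hyper, at 20.7, 27.7 and 17.6 CPM in Control and at 39.6, 38.7 and 43.8 CPM in RemoLV. Every DOX, MYO and RemoLV library was higher than every Hyper and Control library by title, and Hyper and Control overlapped. TFEB was 1.48-fold higher in DOX and MYO than in Hyper (log2 fold change 0.56 ± 0.13 SE, adjusted p = 0.00295), and it stayed called with each of the 13 libraries left out in turn, with an adjusted p of 0.00243 to 0.0351.

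Against Control by title, TFEB was 2.02-fold higher in DOX (log2 fold change 1.02 ± 0.14 SE, adjusted p = 4.29e-05) and 1.90-fold higher in MYO (0.92 ± 0.14 SE, adjusted p = 9.47e-05). In RemoLV it was 1.85-fold higher (0.89 ± 0.16 SE, adjusted p = 0.000187). With the table's names the DOX and MYO log2 fold changes of TFEB were 0.08 and 0.09 (adjusted p = 0.717 and 0.67), since the libraries then called Control are those at 38.7 to 43.8 CPM. Hyper against Control gave 0.41 by title (adjusted p = 0.201) and -0.48 by table name (adjusted p = 0.023). By title the Hyper value rested on Control 2, the highest Control library: without it the log2 fold change was 0.61 and the adjusted p 0.0108.

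ULK1, the kinase that starts autophagosome formation, moved in the same direction as TFEB in the anthracycline groups. The gene is on chromosome 14 (23423693 to 23448130, minus strand). ULK1 was at 53.8, 66.7, 72.0, 66.4 and 66.2 CPM in DOX and at 77.4, 73.4, 66.9, 71.2 and 68.7 CPM in MYO. It was at 53.2, 53.3 and 60.3 CPM in Hyper, at 54.4, 50.7 and 51.4 CPM in Control and at 63.6, 67.5 and 82.6 CPM in RemoLV. The MYO and RemoLV libraries all lay above Hyper and Control, and in DOX the library DOX 1 lay within their range. ULK1 was 1.23-fold higher in DOX and MYO than in Hyper (log2 fold change 0.29 ± 0.09 SE, adjusted p = 0.0219), a call that was lost without Hyper 1 (adjusted p = 0.105) or Hyper 2 (adjusted p = 0.0997).

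With Control by title, ULK1 was higher in DOX (log2 fold change 0.32, adjusted p = 0.0191), in MYO (0.46, adjusted p = 0.00196) and in RemoLV (0.45, adjusted p = 0.00352). The DOX call was lost without Control 2 (adjusted p = 0.0515) or Control 3 (adjusted p = 0.0662), and the MYO and RemoLV calls held with each library left out. By the table's names ULK1 was at -0.08 in DOX and -0.04 in MYO (adjusted p = 0.597 and 0.816), and it was lower in RemoLV (-0.45, adjusted p = 0.00522) and Hyper (-0.36, adjusted p = 0.0273).

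BECN1, a subunit of the lipid kinase complex that nucleates the autophagosome, was not called in any of the 7 comparisons under either set of names. Its locus is on chromosome 12 (20041914 to 20054249, plus strand). BECN1 ranged from 43.9 CPM in DOX 1 to 72.0 CPM in Hyper 1, and the ranges of all 5 groups overlapped. Its log2 fold change between DOX and MYO and Hyper was -0.13, with a 95% interval from -0.33 to 0.07.

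MAP1LC3B encodes LC3B, the lipid-coupled protein used as a marker of autophagosomes. The MAP1LC3B gene is on chromosome 6 (1919879 to 1941069, minus strand). MAP1LC3B was at 88.5, 91.2, 103, 107 and 110 CPM in DOX and at 119, 107, 116, 109 and 109 CPM in MYO. It was at 159, 137 and 119 CPM in Hyper, at 150, 147 and 163 CPM in Control and at 102, 96.1 and 113 CPM in RemoLV. All Control libraries by title lay above all DOX, MYO and RemoLV libraries, and Hyper bridged both, with Hyper 3 level with the highest MYO library. MAP1LC3B was 1.31-fold lower in DOX and MYO than in Hyper (log2 fold change -0.38 ± 0.09 SE, adjusted p = 0.00317), a call that missed the threshold without Hyper 1 (adjusted p = 0.0531).

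Against Control by title, MAP1LC3B was 1.53-fold lower in DOX (adjusted p = 0.000136), 1.37-fold lower in MYO (adjusted p = 0.0016) and 1.48-fold lower in RemoLV (adjusted p = 0.000569), and each call held with any 1 library left out. By the table's names its log2 fold change was -0.03 in DOX and 0.09 in MYO (adjusted p = 0.871 and 0.562). It was then higher in RemoLV (0.57, adjusted p = 0.00081) and in Hyper (0.42, adjusted p = 0.0105).

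GABARAPL1, the other lipid-coupled protein of this set and a relative of LC3, varied most. The GABARAPL1 gene is on chromosome 5 (61758127 to 61767427, minus strand). GABARAPL1 was at 391, 268, 353, 325 and 311 CPM in DOX, at 414, 479, 300, 204 and 331 CPM in MYO, and at 481, 432 and 483 CPM in Hyper. The libraries titled RemoLV were at 168, 189 and 180 CPM, below all 16 others. Control spread widely by title, at 965, 399 and 1070 CPM, and the lowest of these, Control 2, lay below every Hyper library. MYO also spread widely, with its lowest library MYO 4 close to RemoLV.

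Between DOX and MYO and Hyper, GABARAPL1 had a log2 fold change of -0.46 with a 95% interval from -0.94 to 0.01 (adjusted p = 0.122) and was not called. Against Control by title it was 2.46-fold lower in DOX (log2 fold change -1.30 ± 0.25 SE, adjusted p = 0.000609), 2.35-fold lower in MYO (-1.23 ± 0.25 SE, adjusted p = 0.000904) and 4.53-fold lower in RemoLV (-2.18 ± 0.30 SE, adjusted p = 1.88e-05). The names turned all of these: by the table GABARAPL1 was 1.96-fold higher in DOX (adjusted p = 0.0104), 1.81-fold higher in MYO (adjusted p = 0.0201) and 4.53-fold higher in RemoLV (adjusted p = 1.79e-05). The MYO call by table name was lost without MYO 2, Control 1 or Control 3 (adjusted p = 0.0531, 0.0724 and 0.0629). In Hyper the log2 fold change was -0.80 by title (adjusted p = 0.181; -1.13 and 0.00399 without Control 2) and 1.38 by table name (adjusted p = 0.00126). Reads shared between GABARAPL1, MAP1LC3B and related gene copies depend on the authors' counting and were not examined.

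SQSTM1 encodes p62, a receptor that links ubiquitin-tagged cargo to LC3 and is itself broken down with it. It lies on chromosome 2 (78752768 to 78763998, minus strand) and overlaps MRNIP on the other strand, and counting was strand-specific. SQSTM1 was at 272, 232, 253, 286 and 267 CPM in DOX, at 295, 296, 270, 243 and 320 CPM in MYO and at 323, 340 and 351 CPM in Hyper. It was at 324, 308 and 292 CPM in Control and at 284, 248 and 259 CPM in RemoLV. All 10 anthracycline libraries lay below all 3 Hyper libraries, the nearest being MYO 5 and Hyper 1. SQSTM1 was 1.24-fold lower in DOX and MYO than in Hyper (log2 fold change -0.31 ± 0.08 SE, adjusted p = 0.01), and by title the call held with each of the 13 libraries left out in turn, with an adjusted p of at most 0.0416. By table names it missed the threshold without Hyper 1 of the table (adjusted p = 0.0506).

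SQSTM1 was not called against Control by title. Its log2 fold change was -0.23 in DOX (adjusted p = 0.0555, and 0.0488 without DOX 1, 0.0448 without DOX 4 and 0.0208 in DESeq2), -0.11 in MYO (adjusted p = 0.361) and -0.22 in RemoLV (adjusted p = 0.0919). By the table's names it was called only in Hyper, where it was higher (0.36, adjusted p = 0.0177, and 0.068 and 0.0525 without Control 2 or Control 3 of the table).

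BNIP3L and LAMP2 are the only 2 of the 10 genes with the letters CACGTG in the 250 bases before the annotated gene start. CACGTG is a form of the E-box, the type of site that TFEB and other basic helix-loop-helix factors bind, and its letters read the same on both strands. It was found in 2 of the 10 windows and in 6.39% of 19531 such windows of the annotation. The same letters with GT before and AC after them, a longer palindrome that is a form of the element recognised by TFEB, were in 0 of the 10 windows and in 0.261% of all. The shorter letters ACGTG, the core of the HIF-1 site and part of CACGTG, were in 3 of the 10 windows (BNIP3, BNIP3L and LAMP2) and in 18.7% of all, searched on both strands. TGTTTAC, a form of the FOXO site, was in 0 of the 10 windows and 2.28% of all, and the letters CCAAT were in 6 of the 10 and 31.9% of all. A match describes letters in a window, and no binding was measured. The 2 windows are shown 5′ to 3′ on the strand of the gene, from RefSeq Sscrofa11.1, with CACGTG in capitals, for BNIP3L at chr14:10318438-10318687 on the plus strand and for LAMP2 at chrX:98623940-98624189 on the minus strand.
BNIP3L: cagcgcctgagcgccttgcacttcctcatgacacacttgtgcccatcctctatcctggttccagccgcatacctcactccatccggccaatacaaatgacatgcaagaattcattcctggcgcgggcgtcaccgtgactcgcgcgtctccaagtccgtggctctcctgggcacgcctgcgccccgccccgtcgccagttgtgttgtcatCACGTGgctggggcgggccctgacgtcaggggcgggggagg
LAMP2: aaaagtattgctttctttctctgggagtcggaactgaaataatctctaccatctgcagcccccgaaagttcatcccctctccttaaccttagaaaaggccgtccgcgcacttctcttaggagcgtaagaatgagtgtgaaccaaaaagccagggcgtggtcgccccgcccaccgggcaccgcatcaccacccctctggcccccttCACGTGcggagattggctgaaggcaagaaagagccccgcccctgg

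The capitals start 41 bases before the gene start in BNIP3L and 45 bases before it in LAMP2. BNIP3L, also called NIX, is a receptor in the outer mitochondrial membrane that binds LC3 proteins. It lies on chromosome 14 (10318688 to 10345689, plus strand). BNIP3L was at 29.1, 39.6, 33.6, 37.8 and 30.6 CPM in DOX, at 30.5, 33.1, 35.4, 36.9 and 37.1 CPM in MYO and at 49.2, 47.0 and 40.6 CPM in Hyper. It was at 32.0, 47.7 and 33.7 CPM in Control and at 65.4, 57.0 and 62.5 CPM in RemoLV. All 10 anthracycline libraries lay below all Hyper libraries, all RemoLV libraries lay above all others, and Control 2 fell within Hyper. BNIP3L was 1.33-fold lower in DOX and MYO than in Hyper (log2 fold change -0.41 ± 0.12 SE, adjusted p = 0.0121), a call lost without Hyper 1 (adjusted p = 0.0836) or Hyper 2 (adjusted p = 0.0531).

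BNIP3L, against Control by title, was higher in RemoLV (log2 fold change 0.70 ± 0.15 SE, adjusted p = 0.000835) and was -0.15 in DOX and -0.13 in MYO (adjusted p = 0.377 and 0.444). By the table's names BNIP3L was 1.81-fold lower in DOX (adjusted p = 8.74e-05) and 1.78-fold lower in MYO (adjusted p = 0.000112), and it was also lower in RemoLV (-0.70, adjusted p = 0.00083) and in Hyper (-0.43, adjusted p = 0.0274). The atrial and fibroblast marker values of the libraries called Control in the table, given above, stand beside these differences, and their part was not tested.

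LAMP2 lies on chromosome X (98586718 to 98623939, minus strand), and gene counts do not separate its splice forms. LAMP2 was at 117, 124, 119, 120 and 121 CPM in DOX, at 105, 83.3, 111, 108 and 113 CPM in MYO and at 152, 111 and 98.6 CPM in Hyper. It was at 110, 160 and 142 CPM in Control and at 183, 177 and 206 CPM in RemoLV. The RemoLV libraries lay above all others, the DOX libraries lay above the MYO libraries, and both groups overlapped Hyper. LAMP2 was not called between DOX and MYO and Hyper (log2 fold change -0.11, 95% interval -0.37 to 0.15).

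Against Control by title, LAMP2 was lower in MYO (log2 fold change -0.40 ± 0.14 SE, adjusted p = 0.0249) and higher in RemoLV (0.46 ± 0.15 SE, adjusted p = 0.0196). The RemoLV call was lost without RemoLV 3 or Control 1 (adjusted p = 0.0789 and 0.119). By the table's names LAMP2 was lower in DOX (-0.69, adjusted p = 0.00131), MYO (-0.81, adjusted p = 0.000321), RemoLV (-0.46, adjusted p = 0.0252) and Hyper (-0.65, adjusted p = 0.00446). Of these, the RemoLV call was lost without RemoLV 1, RemoLV 3 or Control 3 of the table (adjusted p = 0.0507, 0.141 and 0.0939).

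PINK1 is the kinase that gathers on damaged mitochondria and marks them for removal. It lies on chromosome 6 (78863195 to 78884663, plus strand). PINK1 was at 390, 416, 375, 359 and 453 CPM in DOX, at 374, 452, 417, 366 and 416 CPM in MYO and at 482, 488 and 475 CPM in Hyper. It was at 480, 438 and 432 CPM in Control and at 366, 407 and 415 CPM in RemoLV. The 3 Hyper libraries were tight and lay above all 10 anthracycline libraries and all RemoLV libraries. PINK1 was 1.2-fold lower in DOX and MYO than in Hyper (log2 fold change -0.26 ± 0.08 SE, adjusted p = 0.0229), which was lost without Hyper 1 or Hyper 2 (adjusted p = 0.0745 and 0.0811). Against Control it was called only by table name in Hyper (0.28, adjusted p = 0.0305), a call lost without Control 1, Hyper 2 or Hyper 3 of the table (adjusted p = 0.126, 0.0729 and 0.0546).

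BNIP3, the relative of BNIP3L that hypoxia induces in many cells, was not called in any of the 7 comparisons under either set of names. It lies on chromosome 14 (140362123 to 140371951, minus strand). BNIP3 ranged from 83.7 CPM in Control 2 to 154 CPM in Hyper 3, and all 5 groups overlapped. Its log2 fold change between DOX and MYO and Hyper was -0.14, with a 95% interval from -0.42 to 0.15, which turned to 0.07 without Hyper 3.

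Free and liposomal doxorubicin were given at the same dose and schedule, and between them 0 of the 10 genes were called (0% of all genes tested, 7.08% at an unadjusted p under 0.05). None of the 10 had an unadjusted p under 0.05, and DESeq2 called 0. The intervals leave room for modest differences. For TFEB the log2 fold change of DOX against MYO was 0.09 (95% interval -0.16 to 0.34), for ULK1 -0.14 (-0.32 to 0.05) and for GABARAPL1 -0.07 (-0.53 to 0.40). LAMP2 had the largest positive value, 0.21 (-0.04 to 0.46), with DOX above MYO in all libraries by title, and BECN1 the largest negative one, -0.18 (-0.38 to 0.01). With the table's names, which exchange DOX 5 and MYO 1, LAMP2 was at 0.12 (-0.14 to 0.39) and BECN1 at -0.16 (-0.36 to 0.04).

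RemoLV and Hyper differed by title in 8 of the 10 genes, beside 35.6% of all genes tested, 17% higher and 18.6% lower. These are the libraries of Hyper against Control by table name, so the 8 calls are those given there, with the sign turned. ULK1, BNIP3L, TFEB and LAMP2 were higher in RemoLV and MAP1LC3B, GABARAPL1, SQSTM1 and PINK1 lower. The widest differences were GABARAPL1, 2.60-fold lower (log2 fold change -1.38 ± 0.29 SE, adjusted p = 0.00132), and LAMP2, 1.56-fold higher (0.65 ± 0.15 SE, adjusted p = 0.00315), and these 2 and MAP1LC3B kept their calls with each of the 6 libraries left out. PINK1 lost its call with each of them left out (adjusted p from 0.0584 to 0.161). ULK1 (up to 0.141), BNIP3L (up to 0.106), TFEB (up to 0.101) and SQSTM1 (0.0579 without RemoLV 2) lost theirs without 1 or more single libraries. With the table's names 0 of the 10 were called (0% of all genes tested), with 2 of the 10 and 18.2% of all genes at an unadjusted p under 0.05 and GABARAPL1 at 0.80 (adjusted p = 0.178). GABARAPL1, BNIP3L and TFEB were called without RemoLV 2 of the table.

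The levels of the 10 genes were compared with each other only per kilobase of annotated RefSeq exon. By this measure GABARAPL1 led in Control (460 CPM per kb), Hyper (264), MYO (196) and DOX (187), followed by PINK1 (146, 156, 131 and 129 CPM per kb) and SQSTM1 (141, 154, 130 and 120). In RemoLV by title PINK1 led at 128 CPM per kb, SQSTM1 followed at 121 and GABARAPL1 was the third at 101. TFEB, ULK1 and BNIP3L were the lowest in all 5 groups, at 9.24, 7.92 and 6.26 CPM per kb in Control. The lengths come from RefSeq and the counts from Ensembl gene models, so the order of neighbours such as PINK1 and SQSTM1, which differ by less than their spread between libraries, is not firm.

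Pairs of the 10 genes were compared by their log2 CPM across the 19 libraries. Of the 45 pairs, BNIP3L and LAMP2 had the highest Pearson correlation (0.783 over all libraries, 0.583 after the group means were removed). MAP1LC3B and TFEB had the lowest (-0.852, and -0.28 after the group means were removed), and GABARAPL1 and TFEB were at -0.791 (-0.71 after removal). ULK1 and TFEB were at 0.702 over all libraries and 0.0574 after removal, so that this relation lay between the groups. BNIP3 was at -0.569 with LAMP2 (-0.597 after removal), and GABARAPL1 at -0.545 with BNIP3L (-0.754 after removal, the lowest value within groups). Control 2 by title had the lowest GABARAPL1 and BNIP3 of its group and the highest BNIP3L, LAMP2 and TFEB. Its weight in these values was not tested. The coefficient of BECN1 farthest from 0 was 0.429, with MAP1LC3B (0.492 after removal). Libraries of a group share treatment, wall and series, and the coefficients are given as description.

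**Figure D4:**
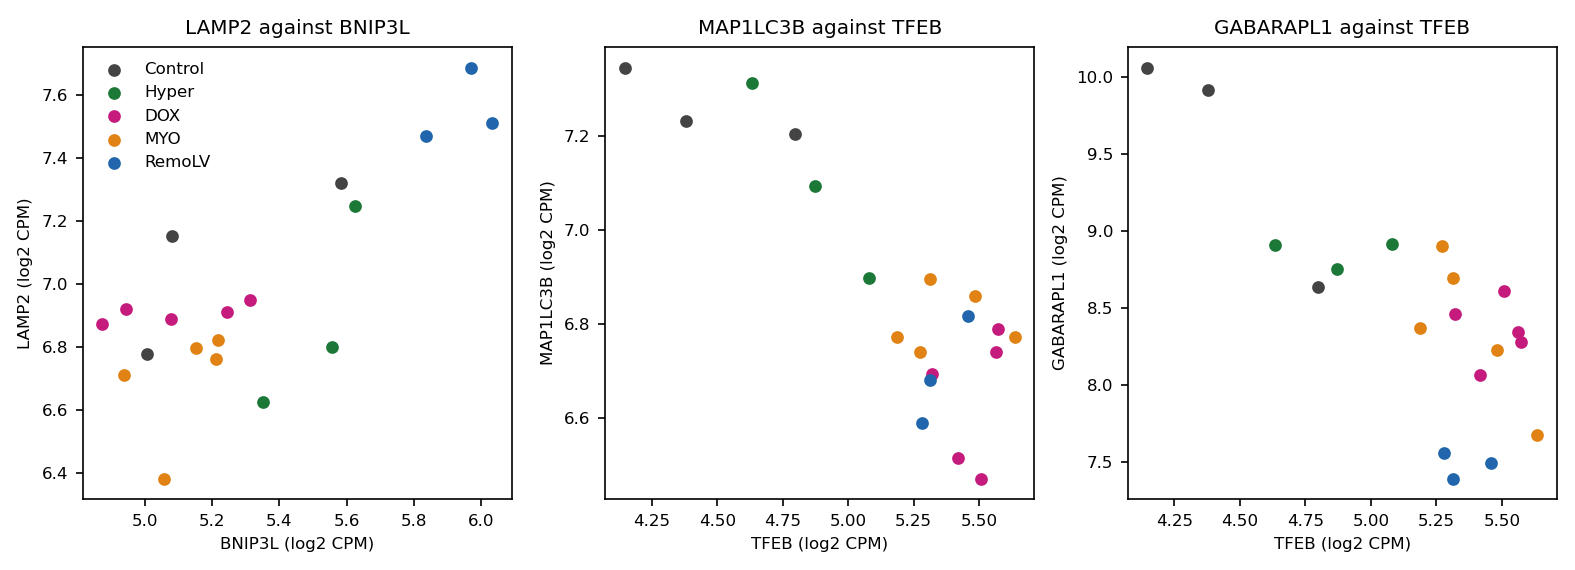
Log2 CPM of LAMP2 against BNIP3L, of MAP1LC3B against TFEB and of GABARAPL1 against TFEB, 1 point per library, coloured by sample title. RemoLV libraries lie at the upper right in the first panel, and in the third panel Control 1 and Control 3 lie highest, with Control 2 below the Hyper libraries.

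Genes most like each member over the 19 libraries were taken from all genes with a symbol and a mean log2 CPM of at least 2. For TFEB these were LRRC45 (Pearson r = 0.963), SUN1 (0.962) and MCRIP1 (0.96), and for ULK1 TGFBRAP1 (0.921), LOC110261334 (0.908) and BSDC1 (0.904). For GABARAPL1 they were MYOT (0.965), which encodes the sarcomere protein myotilin, INSR (0.962), the insulin receptor, and PPA1 (0.962). For MAP1LC3B they were VBP1 (0.946), HIBADH (0.943) and SAR1B (0.94), and for BNIP3L PPT1 (0.924), a lysosomal enzyme, MTMR8 (0.918) and LPCAT4 (0.913). LAMP2 was most like CUL4B (0.919), SMC6 (0.908) and UBE4A (0.904). The remaining members had weaker leaders: MRPS21 for SQSTM1 (0.845), GPATCH4 for PINK1 (0.827), LOC100623035 for BECN1 (0.815) and ADAM15 for BNIP3 (0.807).

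The other genes of the pathway were taken from lists of the same machinery, with 81 listed and 75 tested. Between DOX and MYO and Hyper, 9 were higher and 20 lower, 38.7% of the 75 beside 32.6% of all genes tested, with a median log2 fold change of -0.08 against 0.03. Without Hyper 1 the count fell from 29 to 12. The highest were FLCN (log2 fold change 0.80 ± 0.16 SE, adjusted p = 0.00105), a partner of the nutrient-sensing Rag GTPases, ULK2 (0.75 ± 0.14 SE, adjusted p = 0.0008), the relative of ULK1, and TFE3 (0.49 ± 0.13 SE, adjusted p = 0.00923), the relative of TFEB. The lowest were MITF (-1.02 ± 0.13 SE, adjusted p = 1.75e-05), of the same transcription factor family, PRKAG2 (-0.82 ± 0.22 SE, adjusted p = 0.0087), a subunit of the energy sensor AMPK, and DDIT4 (-0.81 ± 0.21 SE, adjusted p = 0.00647), an inhibitor of mTORC1. TFEB and TFE3 were thus higher and MITF lower in the anthracycline groups. MITF was at 71.9 to 112 CPM in DOX and MYO and at 142 to 229 CPM in Hyper, without overlap.

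**Figure D5:**
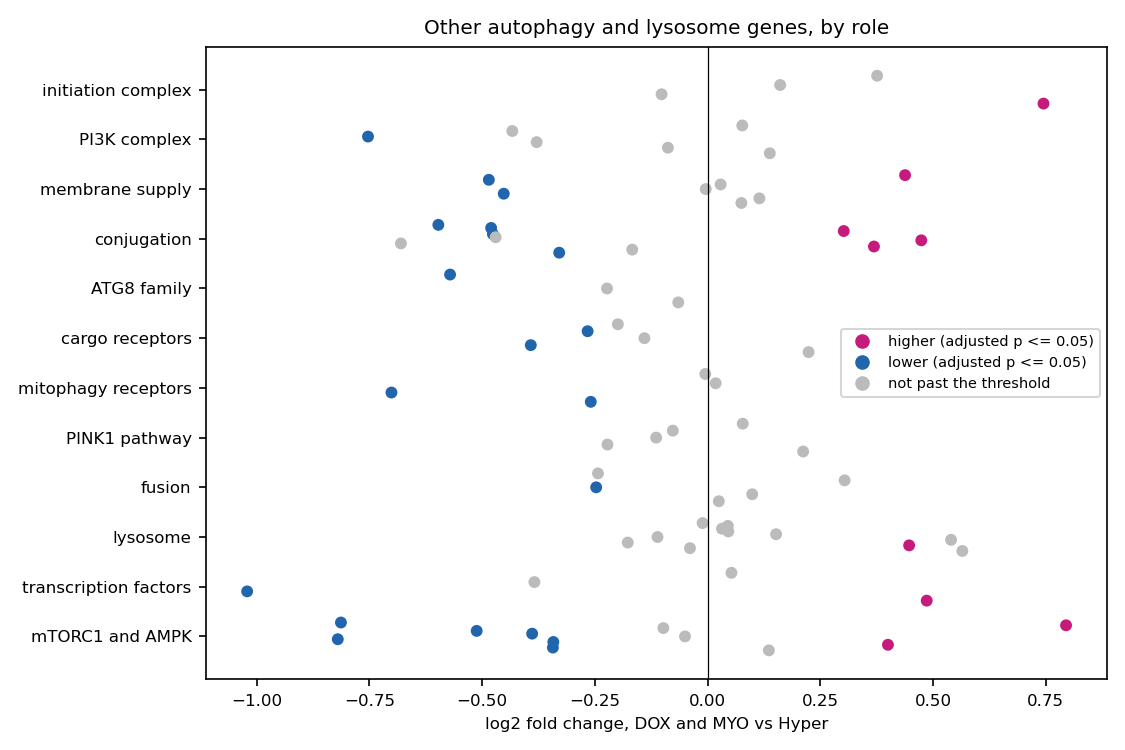
Log2 fold change between DOX and MYO and Hyper of the 75 other autophagy and lysosome genes tested, 1 point per gene, in 12 rows by role. Pink points were higher and blue points lower at an adjusted p of 0.05, and grey points did not pass. MITF lies farthest to the left at -1.02 and FLCN farthest to the right at 0.80.

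The roles hold few genes each, and their counts are given as description beside the 15.8% of all genes that were higher and the 16.9% that were lower. There was 0 higher and 1 lower of 3 in the ATG8 family, 0 and 2 of 5 cargo receptors, 0 and 2 of 4 mitophagy receptors and 2 and 6 of 11 mTORC1 and AMPK genes. The initiation complex held 1 higher and 0 lower of 4, the PI3K complex 0 and 1 of 6, membrane supply 1 and 2 of 7, fusion 0 and 1 of 5, and the transcription factors 1 and 1 of 4. The lower ATG8 gene was GABARAP (-0.57 ± 0.10 SE, adjusted p = 0.000231), the cargo receptors TAX1BP1 (-0.39) and NBR1 (-0.27), and the mitophagy receptors FUNDC1 (-0.70) and PHB2 (-0.26). These 5 were chosen for naming after their values had been seen. The conjugation list, which joins genes that couple LC3 proteins to lipid and the ATG4 proteases that process and release them, split into 3 higher and 4 lower of 10, and of 11 lysosomal genes 1 was higher and 0 lower. The 5 genes tested that act with PINK1 in mitophagy (MFN2, TBK1, USP30, USP15 and PARL) held 0 calls.

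Against Control by title, 14 of the 75 were higher and 22 lower in DOX (48.0%, beside 42.1% of all genes tested), 14 and 21 in MYO (46.7% beside 42.4%) and 12 and 24 in RemoLV (48.0% beside 47.2%). In Hyper 0 were called, as were 0% of all genes tested, with 11 of the 75 and 17.8% of all genes at an unadjusted p under 0.05. The MYO count fell from 35 to 22 without Control 3, and the Hyper count rose to 10 without Control 2 and to 4 without Hyper 1. FLCN led in all 3 groups with calls (1.11 in DOX, 1.24 in MYO and 0.99 in RemoLV), with ATG2A (0.75 in DOX and 0.75 in MYO), a lipid transfer protein, next in DOX and MYO. MITF was the lowest in DOX (-1.24) and MYO (-1.16), and ATG4A, a protease that processes LC3 proteins, the lowest in RemoLV (-2.42), followed by PRKAG2 (-1.86) and MITF (-1.61). The rule also named ATG4B (0.67), PRKAG2 (-1.20) and ATG4A (-0.97) in DOX, ULK2 (0.75), FUNDC1 (-0.90) and ATG4A (-0.78) in MYO, and WIPI2 (0.71) and MCOLN1 (0.68) in RemoLV.

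By the table's names the balance turned. Of the 75 genes, 14 were then higher and 4 lower in DOX (24.0%, beside 29.6% of all genes tested), 15 and 4 in MYO (25.3% beside 29.2%), 24 and 12 in RemoLV (48.0% beside 47.2%) and 23 and 8 in Hyper (41.3% beside 35.8%). The Hyper count fell from 31 to 20 without Control 3 of the table. ATG4A was the highest in all 4 groups, from 1.43 in DOX and 1.67 in MYO to 2.02 in Hyper and 2.42 in RemoLV. Next came WIPI1 (1.35 in DOX and 1.50 in MYO), which binds the lipid of forming autophagosomes, then NPC1 in DOX (1.22) and CTSD, cathepsin D, in MYO (1.27), and PRKAG2 and MITF in RemoLV (1.86 and 1.61) and Hyper (1.70 and 1.43). The lowest were PRKAB1 (-0.47), CALCOCO2 (-0.45) and WIPI2 (-0.42) in DOX, PRKAA1 (-0.58), PRKAB1 (-0.50) and FOXO1 (-0.45) in MYO, FLCN (-0.99), WIPI2 (-0.71) and MCOLN1 (-0.68) in RemoLV, and GLA (-0.85), FLCN (-0.61) and ULK2 (-0.49) in Hyper. Between RemoLV and Hyper by title, 8 of the 75 were higher, led by GLA (0.85), FLCN (0.61) and ULK2 (0.49), and 23 were lower, led by ATG4A (-2.02), PRKAG2 (-1.70) and MITF (-1.43), which is 41.3% of the list beside 35.6% of all genes tested, whereas 0 were called by table name (10 at an unadjusted p under 0.05, and 11 called without RemoLV 2 of the table). The libraries that serve as Control under these names are those with the atrial markers. The RemoLV values by table name are those by title with the sign turned. RemoLV against Hyper by title likewise holds the libraries of Hyper against Control by table name.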

How the data were processed

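RNA-seq counts of 19 pig libraries were analysed, with 1 library per animal. Per the labels and the study's methods, poly(A) RNA was sequenced as paired ends on a strand-specific kit, and the authors aligned the reads with STAR to Sscrofa11.1 and made the deposited raw count files with HTSeq 0.11.1 on Ensembl genes (union mode, reverse strand). The authors also deposited a table of log2 expression values per library, which served only to compare library names, and their own fold changes and p-values, which were not used. Counts ranged from 9527710 to 20370209 per library, and no 2 libraries of a group agreed within sampling noise (lowest mean chi-square per gene 12).

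Counts were filtered with filterByExpr, scaled by TMM and fitted in edgeR 4.0.16 (R 4.3.3) as 1 quasi-likelihood model of 5 groups, with Benjamini-Hochberg adjustment over all genes tested and calls at an adjusted p of at most 0.05. Intervals are 95% intervals of the model. Log2 CPM for correlations used a prior count of 2. DOX and MYO were averaged with equal weight against Hyper. The scripts were tested on simulated data. There, a true log2 fold change of 0.5 was recovered in 5.97% to 28.4% of changed genes, depending on the comparison. An uncalled gene may therefore still have changed by this much. Alternatives were RLE or upper-quartile scaling, DESeq2 1.42.0, no filter or at least 10 counts in every library, only the groups compared, all libraries but those titled RemoLV, a replicate block, each library left out, and the names of the authors' table. Leaving out libraries under the table's names was added after seeing the data.

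The 10 genes and the lists were chosen with earlier results of these data known. Other pathway genes are named as the 3 highest and 3 lowest called per comparison, and like genes as the 3 with the highest correlation over 19 libraries. Of 81 listed pathway genes, 75 had a single identifier by symbol and were tested. Gene positions, exon lengths and windows came from RefSeq Sscrofa11.1, the build of the counts, read with pysam 0.24.0. No protein sequences were used here.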

Additional observations from a re-analysis of the deposited data

Results flagged for a closer look

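In 2 of 20 groups of 5 libraries tested, 1 library stood apart from the others of its group (gap to the nearest library over the whole range, in log2 CPM, above Dixon's value of 0.71), and chance gives such a library in about 1 in 20 groups. ULK1 in DOX was lowest in DOX 1, at 53.8 CPM, with the gap at 0.712 of the range in log2 CPM and at 0.681 in CPM, which is under that value. LAMP2 in MYO was lowest in MYO 2, at 83.3 CPM, with the gap at 0.749 of the range in log2 CPM and at 0.731 in CPM, and the LAMP2 call in MYO against Control had an adjusted p of 0.0599 without that library.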

How the results depend on the processing

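Scaling, filter, test and choice of libraries in the model left the number of the 10 genes called between 4 and 5 in DOX, 4 and 5 in MYO, 5 and 6 in RemoLV, 5 and 6 in DOX and MYO against Hyper and 6 and 8 in RemoLV against Hyper, and 0 in Hyper and in DOX against MYO. BECN1 in RemoLV turned to -0.002 (RLE and DESeq2) and -0.008 (no filter). LAMP2 in MYO lost its call with upper-quartile scaling (-0.34, adjusted p = 0.0565) and in RemoLV in the model of the groups compared (adjusted p = 0.0515). Every one of the 10 genes had at least 249 counts in every library. Here and above, counts from alternative fits by title or without a library stand without the share of all genes called in that fit.

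The table's names turned these values against Control: in DOX ULK1 -0.083, GABARAPL1 0.97 and SQSTM1 0.022, with 18 pathway genes called. In MYO they gave ULK1 -0.039, MAP1LC3B 0.09, GABARAPL1 0.86, SQSTM1 0.083 and PINK1 0.087, with 3 of the 10 genes and 19 pathway genes called. In RemoLV they gave ULK1 -0.45, BECN1 -0.01, MAP1LC3B 0.57, GABARAPL1 2.18, SQSTM1 0.22, BNIP3 -0.037, BNIP3L -0.70, PINK1 0.18, LAMP2 -0.46 and TFEB -0.89. In Hyper they gave ULK1 -0.36, MAP1LC3B 0.42, GABARAPL1 1.38, BNIP3L -0.43 and TFEB -0.48, with 8 of the 10 genes and 31 pathway genes called. DOX against MYO gave GABARAPL1 0.11 and TFEB -0.013. RemoLV against Hyper gave ULK1 -0.093, MAP1LC3B 0.15, GABARAPL1 0.80, BNIP3L -0.27 and TFEB -0.41, with 0 of the 10 genes and 0 pathway genes called.

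With each library left out in turn by title, the calls among the 10 genes ranged from 0 to 3 in Hyper (3 without Control 2), from 2 to 6 in DOX and MYO against Hyper (2 without Hyper 1, 3 without Hyper 2) and from 4 to 6 in RemoLV against Hyper (4 without RemoLV 3 or Hyper 2). Pathway calls ranged from 22 to 41 in MYO (22 without Control 3), 0 to 10 in Hyper (10 without Control 2) and 12 to 33 in DOX and MYO against Hyper (12 without Hyper 1). Uncalled values passed 0 for BNIP3L (-0.26 to 0.052 in DOX, -0.24 to 0.071 in MYO, -0.077 to 0.031 in DOX against MYO), BECN1 (-0.002 to 0.12 in MYO, -0.067 to 0.056 in RemoLV), BNIP3 (-0.068 to 0.15 in RemoLV, -0.29 to 0.068 in DOX and MYO against Hyper), LAMP2 (-0.24 to 0.091 in DOX and MYO against Hyper), and GABARAPL1 (-0.21 to 0.079) and PINK1 (-0.074 to 0.02) in DOX against MYO.

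Under the table's names the calls with each library left out ranged from 4 to 7 and 20 to 35 (10 genes and pathway) in Hyper, 2 to 7 and 12 to 33 in DOX and MYO against Hyper, and 0 to 3 and 0 to 11 in RemoLV against Hyper. Values passed 0 for ULK1 (-0.16 to 0.039 in DOX, -0.11 to 0.082 in MYO, -0.098 to 0.026 in DOX against MYO), MAP1LC3B (-0.089 to 0.039) and SQSTM1 (-0.016 to 0.08) in DOX, BECN1 (-0.056 to 0.067) and BNIP3 (-0.15 to 0.068) in RemoLV, LAMP2 (-0.23 to 0.094) and BNIP3 (-0.29 to 0.069) in DOX and MYO against Hyper, and BNIP3L (-0.079 to 0.03), TFEB (-0.07 to 0.041), BNIP3 (-0.10 to 0.044) and GABARAPL1 (-0.019 to 0.29) in DOX against MYO.

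The replicate numbers gave no sign of pairing the animals. Over 32 same-number pairs the correlation of deviations ran from -0.246 to 0.242, with 4 over 0.1. Over 110 other-number pairs it ran from -0.218 to 0.278, with 14 over 0.1. With the number as a replicate block, 4 of the 10 genes were called in DOX, 5 in MYO, 6 in RemoLV, 0 in Hyper, 5 in DOX and MYO against Hyper, 0 in DOX against MYO and 8 in RemoLV against Hyper, and pathway calls were 31, 28, 33, 0, 22, 0 and 28. The call lost was ULK1 in DOX and MYO against Hyper (0.30, adjusted p = 0.0522).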
